A study of Mus musculus with 28 samples.

Results

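Marker genes of striatal interneurons were examined in RNA-seq counts of 4 mouse brain regions. The set holds 9 genes named as markers of the cholinergic, parvalbumin and somatostatin classes and their neighbours, out of 29878 genes in the count tables. They are Chat, Slc5a7 and Slc18a3 for cholinergic cells, Pvalb for fast-spiking cells, Sst and Nos1 for somatostatin cells, Lhx6, which the parvalbumin and somatostatin classes share, and Htr3a and Vip. Of these, 8 had an entry in every table and all 8 were above 1 CPM in at least 2 libraries. The level of Slc18a3 was not analysed here, because the tables hold no entry for its identifier ENSMUSG00000100241, a gene that lies within the span of Chat on chromosome 14. Chat was above 1 CPM in no motor cortex library, and Vip was above 1 CPM in 1 dorsal striatum and 1 ventral striatum library, so each entered the tests through the regions where it was higher.

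The samples came from Hdc wild-type (WT), heterozygous and knockout (KO) mice aged 2 to 3 months and backcrossed onto C57Bl/6. Hdc encodes the enzyme that makes histamine. Reads were counted in 28 libraries, 7 from dorsal striatum, 8 from ventral striatum, 8 from hypothalamus and 5 from motor cortex. The comparisons ask whether the interneuron markers differ between regions, and between genotypes within a region. For dorsal striatum 2 libraries were WT, 3 heterozygous and 2 KO. The ventral striatum and hypothalamus sets were made of 3 WT, 3 heterozygous and 2 KO samples each. Only 1 motor cortex sample was WT, beside 2 heterozygous and 2 KO, so that WT group has no replicate check. The counts on genes ran from 3536802 to 5150280 per library, with a median of 4392302. Nothing in the labels says that libraries of a group come from separate animals, so p-values measure only the spread between these samples.

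Most striatal neurons are spiny projection neurons, and interneurons are a minority set apart by the transmitters, peptides and calcium-binding proteins they make. Cholinergic interneurons are large and tonically active, parvalbumin cells fire fast and inhibit spiny neurons, and somatostatin cells also make nitric oxide and neuropeptide Y. In bulk tissue, fewer cells of a class and less RNA per cell cannot be told apart.

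Hdc itself was read first, as a check of the labels. In dorsal striatum it measured 0.899 and 0 CPM in the WT libraries, 6.72, 4.17 and 5.71 in the heterozygous libraries, and 9.2 and 8.13 in the KO libraries. Ventral striatum had 0.288, 1.61 and 0 CPM in WT, 5.31, 5.23 and 5.5 in heterozygous, and 11.6 and 12.9 in KO libraries. In motor cortex Hdc measured 0 CPM in the WT library, 4.83 and 5.4 in heterozygous, and 10.1 and 7.83 in KO libraries. Every WT library of these 3 regions was therefore below every heterozygous library, and every heterozygous library below every KO library. Hypothalamus libraries measured 15.3, 19.1 and 16.8 CPM in WT, 14.6, 21.8 and 15.2 in heterozygous, and 11.7 and 14.2 in KO. There both KO libraries were below every heterozygous and WT library, and heterozygous and WT overlapped. The KO/WT change in Hdc was 4.39 log2 units in dorsal striatum (SE 0.86, adjusted p 1.53e-11) and 4.21 in ventral striatum (SE 0.58, adjusted p 1.29e-20). With single libraries left out, the dorsal change ran from 3.23 (without WT 2b) to 8.27 (without WT 1b). The value of 8.27 is set against a lone WT library at 0 and depends on the prior count. In ventral striatum the change ran from 3.61 (without WT 3a) to 6.22 (without WT 2a). In motor cortex the fitted change of 8.32 (adjusted p 9.06e-09) is set against a WT library at 0 and depends on the prior count. In hypothalamus the change of -0.40 was not called, meaning that edgeR's adjusted p was not under 0.05. Libraries labelled KO thus held more Hdc counts than libraries labelled WT outside the hypothalamus, the opposite of a loss. Counts are summed over all exons and the part of the gene that was targeted is not given in the sources used, so they do not check the loss of that part, while they do separate the genotype labels in 3 regions.

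Marker genes of neighbouring tissues were summed per library to see which libraries stood apart. Spiny neuron markers (11 genes) summed to 7580, 8652 and 10755 CPM in dorsal striatum (lowest, median and highest library), with Pde10a the most abundant, and to 1811, 3156 and 4274 CPM in ventral striatum, with Penk the most abundant. The same sums had medians of 247 CPM in hypothalamus and 194 CPM in motor cortex. The 4 regions thus separated on these genes without overlap between the striatal and the other regions, and the lowest ventral libraries were KO 8a at 1811 CPM and WT 3a at 2146 CPM. Of the 11 spiny genes, 10 were called higher and 1 lower in dorsal than ventral striatum, and all 11 were higher in each striatal region than in motor cortex.

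Cortical excitatory markers (9 genes) summed to a median of 2248 CPM in motor cortex, where Slc17a7 led with 1072 CPM, against 114 in dorsal striatum, 140 in ventral striatum and 234 in hypothalamus, where Rorb led with medians of 81.4, 73.8 and 137 CPM. Some libraries outside the cortex were high. Dorsal striatum KO 7b reached 442 CPM, with Slc17a7 at 178 and Tbr1 at 70.6 CPM, and WT 2b reached 191 CPM, with Slc17a7 at 56.4 CPM. Hypothalamus KO 8f reached 567 CPM, with Slc17a7 at 198 CPM. By comparison Slc17a7 measured 3.9 CPM in dorsal striatum WT 1b and 1.84 CPM in KO 8b, and Emx1 was at 0 in most libraries outside the cortex. All 9 cortical genes were called lower in dorsal striatum and in ventral striatum than in motor cortex, and higher in motor cortex than hypothalamus. In dorsal striatum 4 of the 9 were called higher in KO than heterozygous (among them Tbr1 4.24, Slc17a7 4.16 and Neurod6 3.12 log2 units), and in hypothalamus 1 was (Neurod6, 2.91). Without dorsal KO 7b the first 3 were 0.14, -1.44 and 0.25, and without hypothalamus KO 8f Neurod6 was 0.53, none of them called. In dorsal striatum Tbr1 and Slc17a7 also lost their calls without heterozygous 5b (4.01, adjusted p 0.077, and 3.92, adjusted p 0.0998), Slc17a7 without 4b (4.17, adjusted p 0.0761), and Neurod6 without any 1 of the 3 heterozygous libraries in either region. Hypothalamic neuron markers (10 genes) summed to a median of 277 CPM in hypothalamus, led by Pmch at 104 CPM. The medians were 11.8, 11.6 and 8.37 CPM in dorsal striatum, ventral striatum and motor cortex. There Hdc, which followed genotype, was the most abundant of the list (5.71, 5.27 and 5.4 CPM). The dorsal sums were 3.9 and 3.85 CPM in WT and 13.3 and 12.3 CPM in KO libraries. All 10 were called higher in hypothalamus than in each other region, and between genotypes Hdc was the one of the 10 that was called.

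Choroid plexus markers (8 genes, 7 past the filter) summed to 2864 CPM in dorsal striatum KO 8b, of which Ttr made 2704 CPM. The other dorsal libraries held 3.3 and 13.1 CPM (WT), 12, 16.9 and 68.8 CPM (heterozygous) and 8.05 CPM (KO 7b). That one library thus exceeded every other, and in WT 1b 5 of the 8 genes (Ttr, Folr1, Sostdc1, Otx2 and Kcne2) were at 0. The sums had medians of 28.8 CPM in ventral striatum, 53.1 in hypothalamus and 10.3 in motor cortex. In dorsal striatum 6 of the 8 were called higher in KO than WT and 5 higher in KO than heterozygous, of which none was called without KO 8b (adjusted p from 0.542 to 1). With edgeR's likelihood ratio test, none was called in the other genotype comparisons (at an unadjusted p under 0.05, at most 3 of the 8 in any of them).

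Oligodendrocyte markers (8 genes) summed to 3265 and 2806 CPM in the dorsal WT libraries, 4155, 4014 and 4099 CPM in heterozygous and 4187 and 5359 CPM in KO libraries, with Mbp the most abundant. KO 8b was the highest, and both WT libraries were below the other 5. Of the 8 genes, 4 were called higher in KO than WT in dorsal striatum (Mobp 0.76, Trf 0.81, Cnp 0.72 and Cldn11 0.73 log2 units). Without KO 8b these were 0.64, 0.53, 0.62 and 0.64, and without either WT library 0.66 to 0.92, with none of them called (adjusted p from 0.000102 to 0.787 over the alternatives). All 8 were called higher in each of the other 3 regions than in motor cortex. In hypothalamus the sums were 3730, 3765 and 3383 CPM in WT, 4011, 3113 and 5402 CPM in heterozygous and 3637 and 3506 CPM in KO libraries, so heterozygous 6f was the highest. Basal forebrain and septal markers (7 genes, of which 4 are also in the cholinergic list) summed to medians of 47.3 CPM in dorsal striatum, 76.6 in ventral striatum, 107 in hypothalamus and 13 in motor cortex, with Zic1 the most abundant in dorsal striatum and hypothalamus and Lhx8 (26.3 CPM) in ventral striatum. Lhx8 in hypothalamus measured 4.45, 0.516 and 5.37 CPM in WT, 0.37, 0.558 and 0.389 in heterozygous and 0.433 and 0.215 in KO libraries. The WT libraries 1f and 3f therefore stood above the other 6. Lhx8 was called lower in heterozygous than WT hypothalamus (-2.88, SE 0.68, adjusted p 0.0049) and lower in KO than WT (-3.29, SE 0.94, adjusted p 0.0132), the only one of the 7 called between genotypes. With WT 1f and 3f left out these changes were -0.21 and -0.63 (adjusted p 1 each). Single libraries also decided the calls, with adjusted p for heterozygous over WT of 0.106 without WT 1f, 0.217 without WT 3f, 0.067 without heterozygous 4f and 0.0781 without 6f (3.95e-06 to 1 over the alternatives), and for KO over WT of 0.142 without WT 1f, 0.224 without WT 3f and 1 without KO 8f (0.000183 to 1).

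The 8 members together summed to 243, 279 and 293 CPM in dorsal striatum (lowest, median, highest), 227, 292 and 341 in ventral striatum, 222, 242 and 280 in hypothalamus and 186, 203 and 213 in motor cortex. Nos1 was the most abundant member in dorsal striatum, at a median of 151 CPM. Every motor cortex library was below every library of the other 3 regions, which overlapped. Nos1 weighs on this order, at medians of 151 CPM in dorsal striatum, 136 in ventral striatum, 168 in hypothalamus and 49.9 in motor cortex. Pvalb was the most abundant member in motor cortex (68.3 CPM), and sums without Nos1 were not made. Among the 6 region comparisons, 35 of 48 member tests were called with edgeR's likelihood ratio test, 34 with its quasi-likelihood test and 35 with DESeq2.

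Between dorsal and ventral striatum no member was called higher and 2 were called lower in dorsal striatum, where 14.6% of the 14979 genes tested were called higher and 14.4% lower. In dorsal striatum over motor cortex 3 members were higher and 4 lower, against 21.4% and 22% of all genes. In dorsal striatum over hypothalamus 3 were higher and 2 lower, against 25.5% and 30.7%. In ventral striatum over motor cortex 4 were higher and 2 lower, against 22.2% and 21.5%. In ventral striatum over hypothalamus 4 were higher and 3 lower, against 19.7% and 23.9%. In motor cortex over hypothalamus 5 were higher and 3 lower, against 22.9% and 25.4%. The count of 0 members higher in dorsal than ventral striatum came from edgeR's likelihood ratio test and was also 0 by its quasi-likelihood test and by DESeq2, and 2 members (Chat and Slc5a7) were higher at an unadjusted p under 0.05. Both of these were called without ventral striatum WT 2a and also without ventral striatum KO 8a. The median change of the 8 members was -0.24 for dorsal over ventral striatum, -0.18 for dorsal striatum over motor cortex and 0.00 for dorsal striatum over hypothalamus, against -0.01, 0.03 and -0.04 for all genes. For ventral striatum over motor cortex, ventral striatum over hypothalamus and motor cortex over hypothalamus it was 0.75, 0.57 and 0.80, against 0.04, -0.03 and -0.05.

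**Figure D1:**
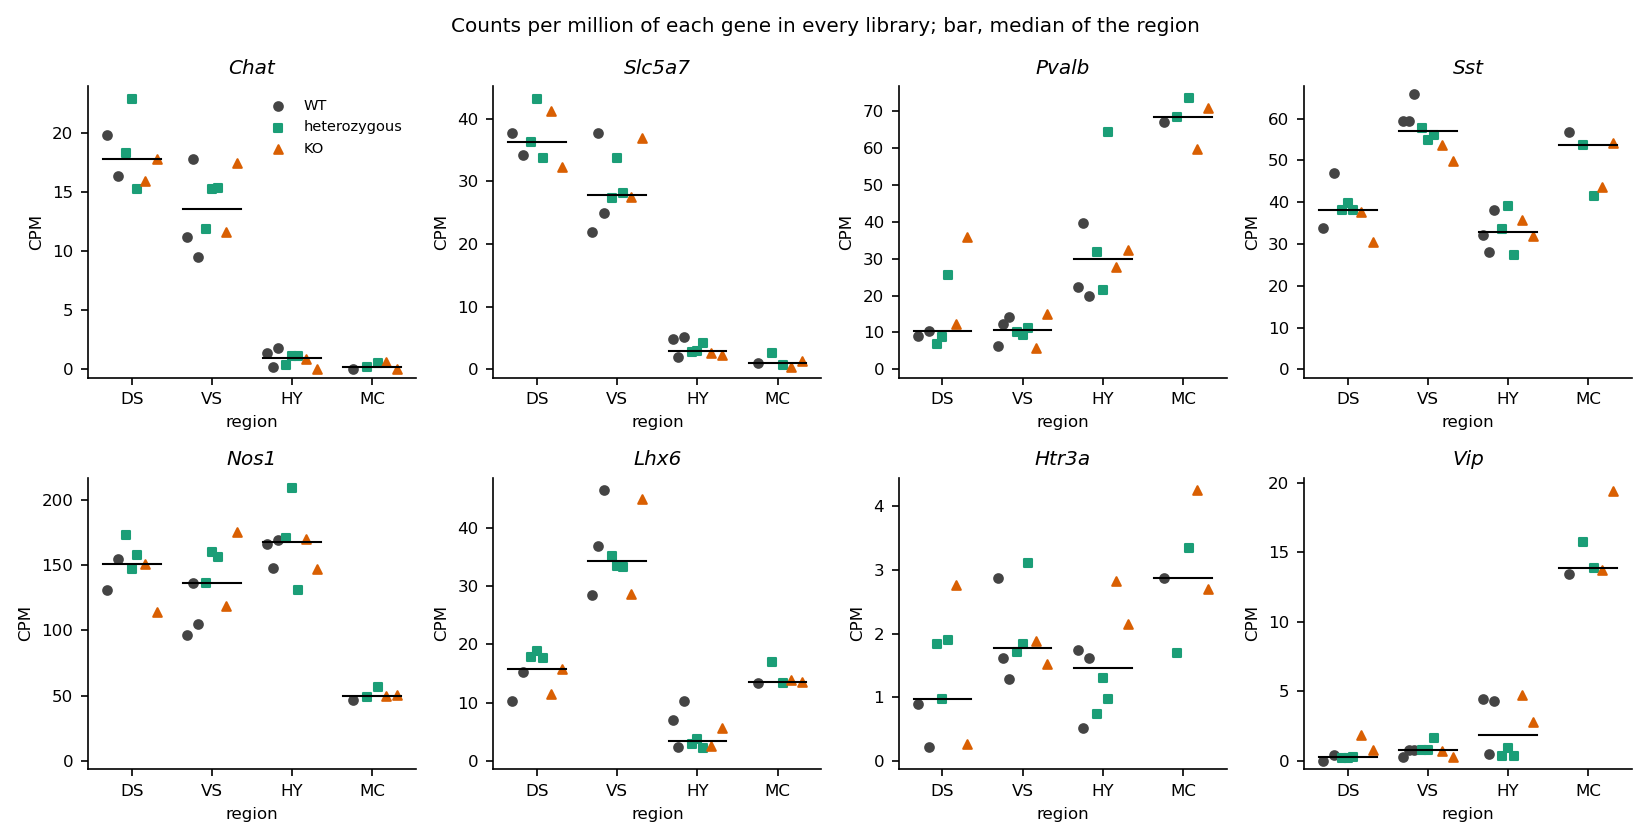
TMM-scaled CPM (vertical axis) of the 8 members in each of the 28 libraries by region (horizontal axis), with WT as circles, heterozygous as squares, KO as triangles and the region median as a bar. Chat and Slc5a7 stand high in both striatal regions (medians of 17.8 and 36.3 CPM in dorsal striatum), and Pvalb and Vip are highest in motor cortex (68.3 and 13.9 CPM).

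**Figure D2:**
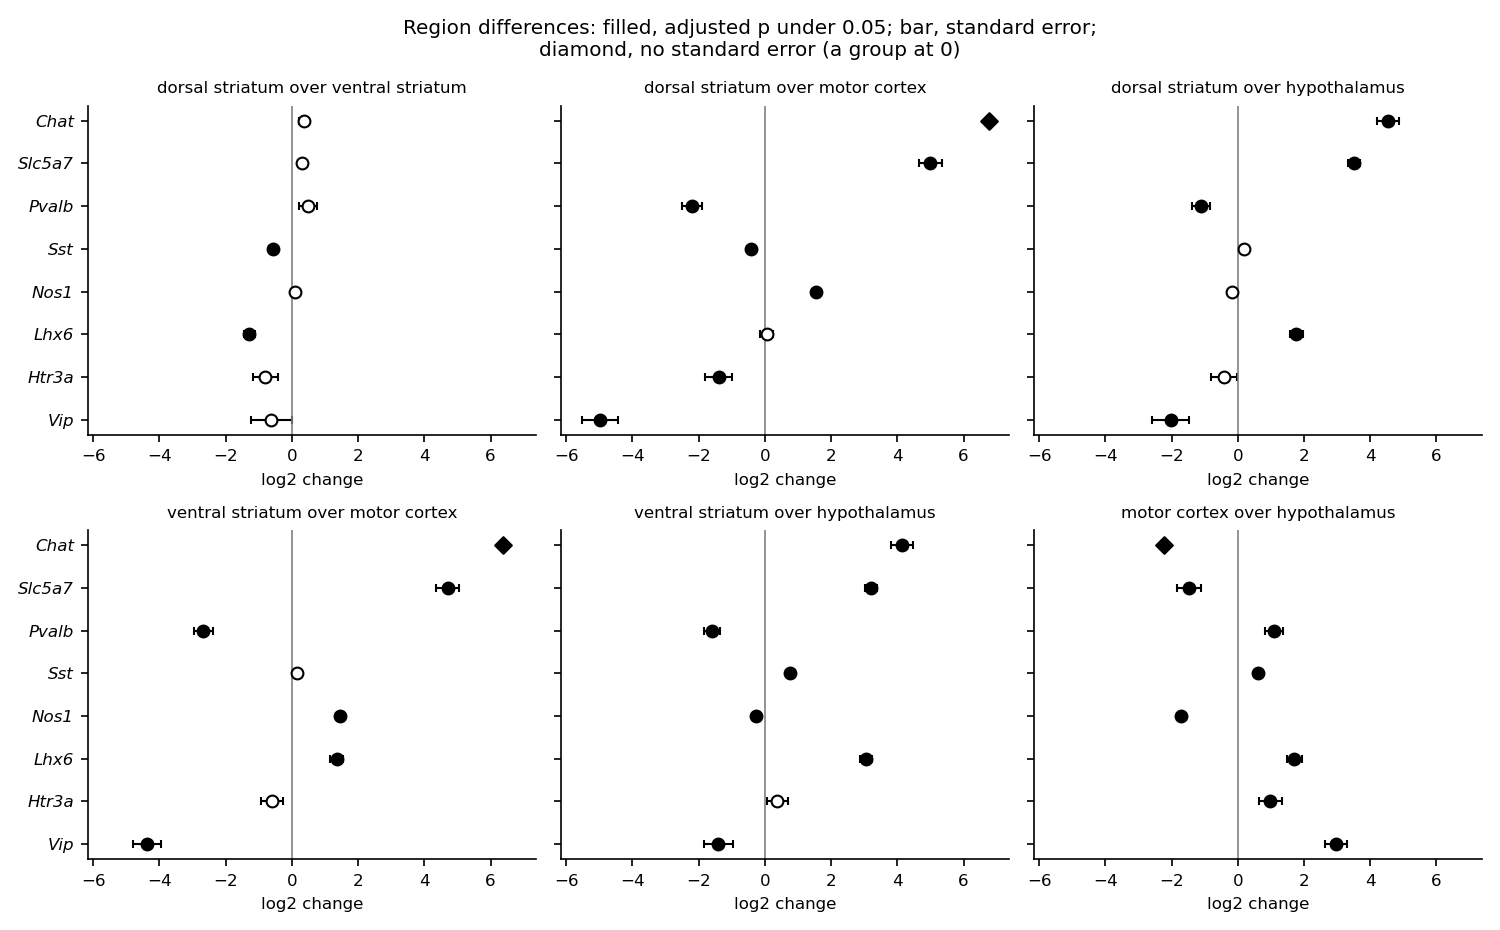
Log2 change of each member (horizontal axis in 6 panels, 1 per region comparison) with its standard error, filled where the adjusted p was under 0.05, and diamonds where a group at 0 gave no standard error. Between dorsal and ventral striatum only Sst (-0.58) and Lhx6 (-1.29) are filled.

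Chat (ENSMUSG00000021919, chr14:32408203-32465989, minus strand, GRCm38) encodes choline acetyltransferase, which makes acetylcholine. In dorsal striatum it measured 19.8 and 16.3 CPM in WT, 18.3, 22.8 and 15.2 CPM in heterozygous and 15.9 and 17.8 CPM in KO libraries. The ventral striatum values were 11.2, 17.8 and 9.49 CPM in WT, 11.9, 15.2 and 15.3 CPM in heterozygous and 11.6 and 17.4 CPM in KO libraries. Genotypes overlapped in both regions, and the 2 regions overlapped between 15.2 and 17.8 CPM. Hypothalamus ran from 0 to 1.79 CPM with a median of 0.991, and motor cortex from 0 to 0.671 CPM with a median of 0.241, both far below any striatal library. The dorsal over ventral change was 0.37 log2 units (SE 0.16, adjusted p 0.0555) and was not called. It was called without ventral striatum WT 2a (0.48, adjusted p 0.00542), without ventral striatum KO 8a (0.48, adjusted p 0.0188), without dorsal striatum heterozygous 6b (0.41, adjusted p 0.0324), with only the libraries compared (0.37, adjusted p 0.0452) and with ventral striatum KO 8a and WT 3a left out together (0.42, adjusted p 0.0401). Summed counts gave a dorsal to ventral ratio of 1.32 (95% counting interval 1.16 to 1.5). Chat was 4.53 log2 units higher in dorsal striatum than hypothalamus (SE 0.33, adjusted p 7.5e-82), and 4.15 higher in ventral striatum than hypothalamus (SE 0.33, adjusted p 6.14e-67). Without hypothalamus KO 7f, which leaves a KO group at 0, these became 5.87 and 5.51. Against motor cortex, with 6 counts in all, the dorsal ratio was 61.1 (27.9 to 167) and the ventral ratio 46.4 (21.2 to 127). Both were called (adjusted p 1.19e-59 and 2.27e-50), though their fitted changes depend on the prior count and went from 6.76 to 8.02 and from 6.38 to 7.65 without motor cortex KO 7d. Motor cortex over hypothalamus went from -2.23 to -3.50 without that library. Motor cortex over hypothalamus was called lower (adjusted p 0.0181, hypothalamus to motor cortex ratio 2.93, 1.22 to 8.5), with adjusted p-values of 0.0833 by the quasi-likelihood test, 0.0551 without motor cortex KO 8d, 0.289 with the hypothalamus WT libraries 1f and 3f left out and 1 without hypothalamus KO 7f, where the change was -0.88.

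Slc5a7 (ENSMUSG00000023945, chr17:54273590-54299034, minus strand) encodes the choline transporter that feeds acetylcholine synthesis. It measured 37.8 and 34.2 CPM in WT, 36.3, 43.1 and 33.7 CPM in heterozygous and 41.2 and 32.3 CPM in KO dorsal striatum. The ventral values were 21.9, 37.7 and 24.9 CPM in WT, 27.3, 33.8 and 28.2 CPM in heterozygous and 27.6 and 36.9 CPM in KO libraries. As with Chat, genotypes overlapped, and the regions overlapped between 32.3 and 37.7 CPM. Ventral WT 2a and KO 8a were the 2 highest ventral libraries for both genes. These 2 were also the highest ventral libraries in Ngfr, another gene of cholinergic neurons, at 20.5 and 30.3 CPM. In Lhx8 KO 8a was highest (42.5 CPM), but WT 3a (40 CPM) and heterozygous 5a (33 CPM) exceeded WT 2a (28.5 CPM). Whether these levels share a source was not tested. Medians were 2.88 CPM in hypothalamus and 0.961 CPM in motor cortex, and no library of these regions reached the striatal range. The dorsal over ventral change of 0.30 log2 units (SE 0.13, adjusted p 0.0662) was not called. It was called without ventral striatum WT 2a (0.38, adjusted p 0.00421), without ventral striatum KO 8a (0.37, adjusted p 0.0307) and without dorsal striatum KO 8b (0.35, adjusted p 0.0387). Slc5a7 was 3.51 higher in dorsal striatum than hypothalamus (SE 0.18, adjusted p 4.97e-102) and 3.21 higher in ventral striatum than hypothalamus (SE 0.18, adjusted p 3.16e-86). It was 4.99 higher in dorsal striatum than motor cortex (SE 0.35, adjusted p 2.74e-86), a ratio of summed counts of 30.1 (20.3 to 46.8), and 4.70 higher in ventral striatum than motor cortex (SE 0.35, adjusted p 6.47e-76). Motor cortex was lower than hypothalamus by a change of -1.48 (SE 0.37, adjusted p 3.45e-05). Per kb of exon, Chat had a median of 3.79 CPM and Slc5a7 of 6.42 CPM in dorsal striatum.

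Other genes of cholinergic neurons (11 genes) gave 1 called higher and 5 lower in dorsal than ventral striatum, with a list median of -0.22. The higher gene was Slc17a8 (0.63, adjusted p 0.00079), and Lhx8 (-1.34, adjusted p 1.5e-06), Gbx2 (-1.57) and Ngfr (-1.58) were among the lower. These genes summed to 135, 138 and 148 CPM in dorsal striatum (lowest, median, highest), 118, 169 and 255 CPM in ventral striatum, 191, 202 and 228 CPM in hypothalamus and 45, 51.2 and 60.3 CPM in motor cortex. The most abundant were Ecel1 in both striatal regions (36.3 and 39.8 CPM), Ache in hypothalamus (62.8 CPM) and Chrm2 in motor cortex (28.7 CPM). Unlike Chat and Slc5a7, the list was thus higher in every hypothalamus library than in any dorsal striatum library, and hypothalamus and ventral striatum overlapped. It gave 9 higher and 1 lower against motor cortex in dorsal and likewise in ventral striatum, 5 higher and 5 lower against hypothalamus in each, and 0 higher and 10 lower for motor cortex over hypothalamus. Isl1 (5.69 log2 units) and Ecel1 (5.63) were among the genes higher in dorsal striatum than motor cortex. Lhx8 in hypothalamus was the one gene of the list called between genotypes.

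RefSeq promoter windows on GRCm38.p6, from 250 bases before to 50 bases after the transcript start, were searched on both strands for TGACG, the core of the cyclic AMP response element, which is shown in capitals. The core was present in 6837 of 32851 promoters (20.8%) and in 5 of the 11 windows of the members (Chat, Slc18a3, Sst, Nos1 and Vip), while the full TGACGTCA was in 588 (1.79%) and in 1 member window, that of Sst. Htr3a had no window. A match describes the sequence and was not related to any level. The windows of Chat (chr14:32465860-32466159, minus strand) and of Slc5a7 (chr17:54298985-54299284, minus strand, no match) were these.
Chat: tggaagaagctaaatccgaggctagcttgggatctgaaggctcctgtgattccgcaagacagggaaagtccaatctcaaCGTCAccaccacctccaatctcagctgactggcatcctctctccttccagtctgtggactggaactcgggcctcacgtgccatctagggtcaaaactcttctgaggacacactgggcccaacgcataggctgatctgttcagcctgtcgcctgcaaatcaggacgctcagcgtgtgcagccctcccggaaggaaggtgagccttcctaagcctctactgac
Slc5a7: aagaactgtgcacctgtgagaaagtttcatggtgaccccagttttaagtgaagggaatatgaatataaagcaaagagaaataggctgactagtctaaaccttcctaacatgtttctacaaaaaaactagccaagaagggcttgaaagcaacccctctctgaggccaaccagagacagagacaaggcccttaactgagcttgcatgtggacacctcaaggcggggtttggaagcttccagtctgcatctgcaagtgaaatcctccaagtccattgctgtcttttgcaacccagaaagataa

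Pvalb (ENSMUSG00000005716, chr15:78191114-78206400, minus strand) encodes the calcium-binding protein parvalbumin. It measured 8.99 and 10.4 CPM in WT, 6.92, 8.82 and 25.6 CPM in heterozygous and 12.4 and 35.9 CPM in KO dorsal striatum. Ventral striatum gave 6.34, 12.4 and 14.1 CPM in WT, 10.2, 9.42 and 11.2 CPM in heterozygous and 5.9 and 14.9 CPM in KO libraries. Dorsal heterozygous 6b and KO 8b therefore exceeded every ventral library, while the other 5 dorsal libraries lay inside the ventral range. Hypothalamus ran from 20 to 64.1 CPM with a median of 29.8, and motor cortex from 59.5 to 73.3 CPM with a median of 68.3. Motor cortex was above both striatal regions without overlap, and 1 hypothalamus library, heterozygous 6f, fell in its range. The dorsal over ventral change of 0.48 (SE 0.27, adjusted p 0.18) was not called. It was called without dorsal striatum KO 7b (0.67, adjusted p 0.0476), without ventral striatum KO 8a (0.75, adjusted p 0.0416) and with ventral striatum KO 8a and WT 3a left out together (0.83, adjusted p 0.0288). Pvalb was lower in dorsal striatum than motor cortex (-2.20, SE 0.30, adjusted p 1.05e-12) and lower in ventral striatum than motor cortex (-2.68, SE 0.29, adjusted p 2.05e-19). Against hypothalamus the change was -1.11 in dorsal striatum (SE 0.26, adjusted p 8.54e-05) and -1.59 in ventral striatum (SE 0.25, adjusted p 6.87e-09). Motor cortex exceeded hypothalamus by 1.09 (SE 0.28, adjusted p 0.000315).

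The highest Pvalb library was also the highest in oligodendrocyte markers in dorsal striatum (KO 8b, 35.9 CPM of Pvalb and 5359 CPM summed) and in hypothalamus (heterozygous 6f, 64.1 CPM and 5402 CPM summed), but not in the other 2 regions. In ventral striatum KO 8a was highest in Pvalb, with 4496 CPM of oligodendrocyte markers against 4858 in WT 3a, and in motor cortex heterozygous 6d was, with 2179 CPM against 2472 in heterozygous 5d. The second highest dorsal library in Pvalb, heterozygous 6b, had the second highest choroid plexus sum. Hypothalamus heterozygous 6f was also second in cortical excitatory markers (334 CPM, of which Rorb made 193), after KO 8f. The 4 highest hypothalamus libraries in Pvalb (6f, WT 2f, KO 8f and heterozygous 4f) were also the 4 highest in Slc17a7, at 44.8, 34.1, 198 and 25.7 CPM, in another order. Tbr1 did not follow, with 10.3 CPM in 6f against 11.4 in WT 1f and 62.1 in KO 8f. By the number in the library name, Pvalb was higher in KO 8 than KO 7 in all 4 regions and highest of the heterozygous libraries in number 6 in all 4. It was higher in WT 2 than WT 1 in the 3 regions that have both. Other numbers changed order. WT 3 was the highest WT library in ventral striatum (14.1 CPM) and the lowest in hypothalamus (20 CPM). Heterozygous 4 was below 5 in dorsal striatum (6.92 and 8.82 CPM) and above it in hypothalamus (31.8 and 21.4 CPM). Whether these levels share a cause was not tested. Genes of the medial ganglionic eminence and of parvalbumin cells (14 genes, 13 in the tables, Tac3 being the one without an entry) summed to 309, 336 and 400 CPM in dorsal striatum, 333, 469 and 647 CPM in ventral striatum, 601, 650 and 814 CPM in hypothalamus and 912, 951 and 1037 CPM in motor cortex. The highest single library was KO 8b in dorsal striatum, KO 8a in ventral striatum and heterozygous 6f in hypothalamus, as for Pvalb, while in motor cortex the list was highest in KO 8d and Pvalb in heterozygous 6d. Kcnc1 (126 CPM) was the most abundant in dorsal striatum and Satb1 (276 CPM) in motor cortex. The list gave 2 higher and 6 lower in dorsal than ventral striatum (list median -0.24, with Kcnc2 -1.75, Nxph1 -0.77, Erbb4 -0.76 and Sox6 -0.73), 2 and 9 against motor cortex (list median -0.84) and 3 and 8 against hypothalamus. Ventral striatum gave 3 higher and 7 lower against motor cortex and likewise against hypothalamus, and motor cortex over hypothalamus 5 and 3. None of the 13 was called between genotypes with edgeR's likelihood ratio test, with at most 2 at an unadjusted p under 0.05 in any comparison.

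**Figure D3:**
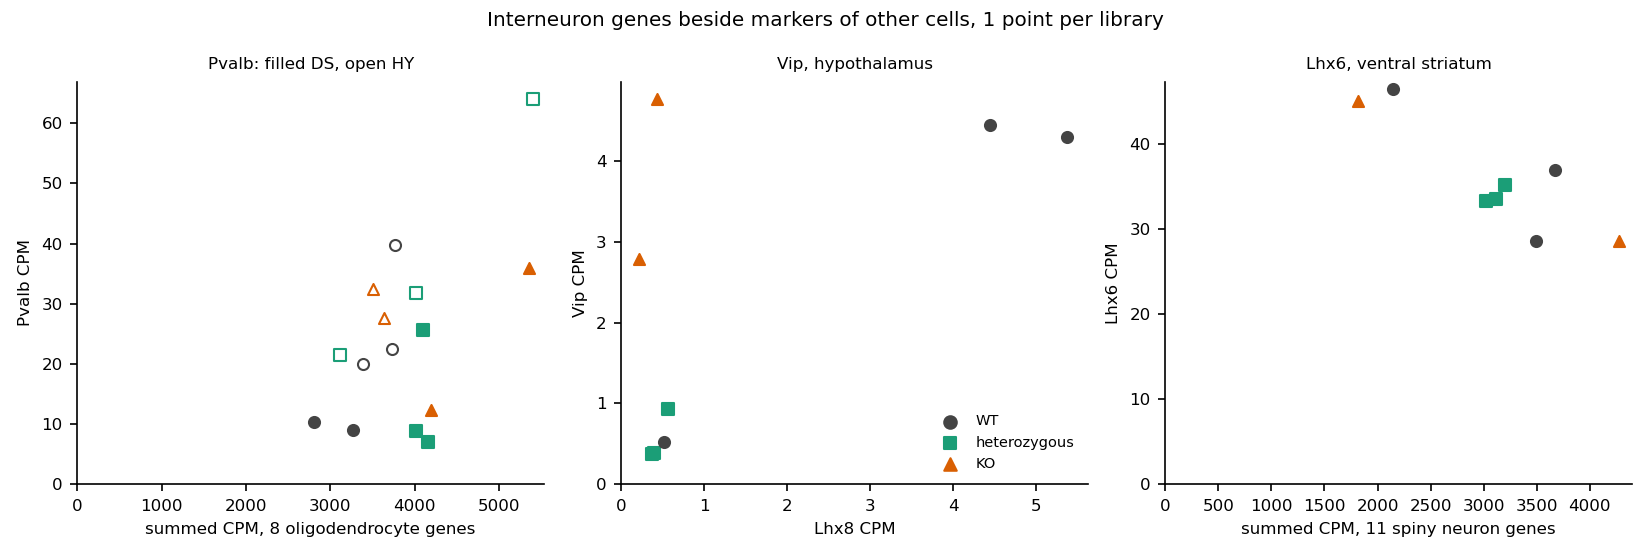
Pvalb CPM against the summed oligodendrocyte markers (dorsal striatum filled, hypothalamus open), Vip against Lhx8 in hypothalamus, and Lhx6 against the summed spiny neuron markers in ventral striatum, 1 point per library, both axes in CPM. The highest Pvalb libraries, at 35.9 and 64.1 CPM, are also the highest in oligodendrocyte markers of these 2 regions, which does not hold in ventral striatum and motor cortex (not drawn).

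Sst (ENSMUSG00000004366, chr16:23889573-23890958, minus strand) encodes the peptide somatostatin. It measured 33.9 and 46.9 CPM in WT, 38.1, 39.9 and 38.1 CPM in heterozygous and 37.7 and 30.4 CPM in KO dorsal striatum. In ventral striatum it reached 59.4, 59.5 and 65.9 CPM in WT, 57.8, 55 and 56.2 CPM in heterozygous and 53.6 and 49.8 CPM in KO libraries. Every ventral library was above every dorsal library. Hypothalamus ran from 27.3 to 39.2 CPM with a median of 32.8, and motor cortex from 41.4 to 56.7 CPM with a median of 53.6. Hypothalamus overlapped dorsal striatum only, and motor cortex overlapped both striatal regions. Sst was lower in dorsal than ventral striatum (-0.58, SE 0.10, adjusted p 1.64e-08), with changes from -0.73 to -0.51 over 26 alternatives, each of them called. It was lower in dorsal striatum than motor cortex (-0.43, SE 0.11, adjusted p 0.000334), though not with the WT libraries alone (-0.47, adjusted p 0.115). Sst was higher in ventral striatum than hypothalamus (0.76, SE 0.09, adjusted p 9.85e-16). It was also higher in motor cortex than hypothalamus (0.61, SE 0.11, adjusted p 3.86e-08, from 0.37 to 0.78 over the alternatives). Dorsal striatum over hypothalamus (0.18, SE 0.10, adjusted p 0.105) was not called, but was without hypothalamus heterozygous 5f (0.22, adjusted p 0.0371), hypothalamus WT 3f (0.24, adjusted p 0.0289) or dorsal striatum WT 1b (0.25, adjusted p 0.0281), and with hypothalamus WT 1f and 3f left out together (0.27, adjusted p 0.0247). Ventral striatum over motor cortex (0.15, adjusted p 0.247) was not called.

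Nos1 (ENSMUSG00000029361, chr5:117781032-117958840, plus strand) encodes neuronal nitric oxide synthase. It measured 131 and 155 CPM in WT, 173, 147 and 158 CPM in heterozygous and 151 and 114 CPM in KO dorsal striatum. Ventral values were 96.5, 136 and 105 CPM in WT, 136, 160 and 156 CPM in heterozygous and 119 and 175 CPM in KO libraries. Medians were 168 CPM in hypothalamus (131 to 209) and 49.9 CPM in motor cortex (46.6 to 56.3), so that motor cortex was below all other libraries and the other 3 regions overlapped. Nos1 shares 268 exon bases with Gm26995 on the opposite strand, and reads there cannot be told apart because the use of strand in the counting is not stated. Nos1 was higher in dorsal striatum than motor cortex (1.54, SE 0.13, adjusted p 3.36e-30), higher in ventral striatum than motor cortex (1.45, SE 0.12, adjusted p 1.07e-27) and lower in motor cortex than hypothalamus (-1.71, SE 0.12, adjusted p 4.91e-38). Dorsal over ventral striatum (0.09, SE 0.10, adjusted p 0.563) was not called. Ventral striatum over hypothalamus was called (-0.27, SE 0.10, adjusted p 0.0194) but depended on single libraries, with -0.21 (adjusted p 0.0647) without hypothalamus 5f, -0.20 (0.142) without hypothalamus 7f, -0.18 (0.148) without ventral 7a, -0.23 (0.0597) without hypothalamus 1f, -0.23 (0.0669) without hypothalamus 3f and -0.23 (0.0513) without ventral 1a. With hypothalamus 1f and 3f left out together it was -0.20 (adjusted p 0.174). Dorsal striatum over hypothalamus (-0.17, adjusted p 0.142) was called only when scaled by library size alone (-0.54, adjusted p 1.3e-05), without hypothalamus heterozygous 6f (-0.23, adjusted p 0.0367) and with the libraries high in cortical markers left out (-0.32, adjusted p 0.0273). Per kb of exon, dorsal striatum held a median of 52.8 CPM of Sst and 13.5 CPM of Nos1.

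A list named for somatostatin, neuropeptide Y and nitric oxide cells (10 genes) includes Reln, Calb1, Gucy1a1 and Gucy1b1. Whether these are confined to such cells was not tested. The list summed to 894, 974 and 1065 CPM in dorsal striatum and 614, 731 and 779 CPM in ventral striatum. It summed to 321, 358 and 395 CPM in hypothalamus and 534, 560 and 631 CPM in motor cortex. Reln (326 CPM) was the most abundant in dorsal striatum, Gucy1a1 (142 CPM) in ventral striatum, Calb1 (98.3 CPM) in hypothalamus and Nos1ap (136 CPM) in motor cortex. Dorsal striatum thus had the highest sums of this list, without overlap, although its Sst was below that of ventral striatum. Reln alone made 291 to 361 CPM of each dorsal sum. Sums without Reln, Calb1, Gucy1a1 or Gucy1b1 were not made, so the sums do not rank the regions by such cells. Dorsal over ventral striatum gave 3 higher and 2 lower (list median 0.14), with Reln 1.63 (adjusted p 7.48e-98), Tacr1 0.66 and Gucy1b1 0.43 higher and Elfn1 -1.65 lower. The other comparisons gave 5 and 4 for dorsal striatum over motor cortex (list median 0.80), 6 and 2 for dorsal striatum over hypothalamus (list median 1.02), 7 and 2 for ventral striatum over motor cortex, 7 and 1 for ventral striatum over hypothalamus, and 6 and 3 for motor cortex over hypothalamus. Npy was 1.88 higher in dorsal striatum and 2.10 higher in ventral striatum than in hypothalamus. Between genotypes only Npy was called, higher in KO than WT hypothalamus (0.83, SE 0.21, adjusted p 0.0392). It measured 12, 15.7 and 20.2 CPM in WT and 21.2 and 35.6 CPM in KO libraries, the higher KO library being 8f, with its high cortical markers, and 93.7 to 122 CPM in motor cortex. The call was lost without KO 8f (0.41, adjusted p 1), without WT 1f (0.65, adjusted p 0.489) and without WT 2f (0.79, adjusted p 0.209), and adjusted p ran from 0.000473 to 1 over the alternatives.

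The promoter windows of Sst (chr16:23890795-23891094, minus strand) and of Nos1 (chr5:117866589-117866888, plus strand) were these. The Nos1 window is that of a transcript start inside the gene, whose span begins at chr5:117781032. The 2 matches in the Sst window are the 2 strands of the full element.
Sst: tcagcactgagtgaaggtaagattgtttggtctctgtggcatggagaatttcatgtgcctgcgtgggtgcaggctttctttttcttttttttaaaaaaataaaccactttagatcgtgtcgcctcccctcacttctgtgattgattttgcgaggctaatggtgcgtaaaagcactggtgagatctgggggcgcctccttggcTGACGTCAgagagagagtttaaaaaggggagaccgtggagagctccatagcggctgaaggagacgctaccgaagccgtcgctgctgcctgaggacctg
Nos1: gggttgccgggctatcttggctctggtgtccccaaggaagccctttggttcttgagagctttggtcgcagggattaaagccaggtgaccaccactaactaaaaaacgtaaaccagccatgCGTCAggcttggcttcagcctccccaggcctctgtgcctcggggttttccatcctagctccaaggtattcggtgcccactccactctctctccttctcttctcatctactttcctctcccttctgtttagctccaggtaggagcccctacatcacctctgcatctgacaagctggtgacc

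Lhx6 (ENSMUSG00000026890, chr2:36081953-36105408, minus strand) encodes a transcription factor of cells born in the medial ganglionic eminence. It measured 10.2 and 15.2 CPM in WT, 17.9, 18.9 and 17.7 CPM in heterozygous and 11.5 and 15.7 CPM in KO dorsal striatum. The ventral libraries gave 28.5, 36.9 and 46.4 CPM in WT, 35.1, 33.5 and 33.3 CPM in heterozygous and 28.6 and 45 CPM in KO. Every ventral library exceeded every dorsal library, and the 2 highest, WT 3a and KO 8a, were also the 2 lowest in spiny neuron markers and the 2 highest in Lhx8, at 40 and 42.5 CPM. Hypothalamus ran from 2.14 to 10.2 CPM with a median of 3.34, and motor cortex from 13.4 to 16.9 CPM with a median of 13.5. Dorsal striatum and motor cortex overlapped, and hypothalamus met dorsal striatum at 10.2 CPM. Lhx6 shares 104 exon bases with Gm27953 on the same strand, whose reads cannot be told apart from its own. Lhx6 was lower in dorsal than ventral striatum (-1.29, SE 0.17, adjusted p 7.29e-13), from -1.54 to -1.11 over 26 alternatives, each of them called, and -1.11 with WT 3a and KO 8a left out. It was higher in ventral striatum than motor cortex (1.35, SE 0.19, adjusted p 7.77e-11) and in ventral striatum than hypothalamus (3.06, SE 0.19, adjusted p 2.88e-60). Lhx6 was also higher in dorsal striatum than hypothalamus (1.77, SE 0.20, adjusted p 1.42e-18, from 0.97 to 2.27 over the alternatives). Motor cortex exceeded hypothalamus by 1.71 (SE 0.22, adjusted p 1.52e-14, from 1.03 to 2.21 over the alternatives). Dorsal striatum over motor cortex (0.06, SE 0.20, adjusted p 0.852) was not called.

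Htr3a (ENSMUSG00000032269, chr9:48899213-48911099, minus strand) encodes a subunit of the ionotropic serotonin receptor. It was low in every region, with 0.227, 0.98 and 2.76 CPM in dorsal striatum (lowest, median, highest), 1.28, 1.77 and 3.11 CPM in ventral striatum, 0.516, 1.46 and 2.82 CPM in hypothalamus and 1.69, 2.88 and 4.25 CPM in motor cortex. All 4 ranges overlapped. It was called lower in dorsal striatum than motor cortex (-1.40, SE 0.41, adjusted p 0.00107; -2.23 without dorsal striatum KO 7b, and from -2.40 to -1.14 over the alternatives) and higher in motor cortex than hypothalamus (0.98, SE 0.34, adjusted p 0.00872). The latter was not called with library size alone (0.75, adjusted p 0.0517), with the WT libraries alone (1.15, adjusted p 0.196) or without motor cortex heterozygous 6d (0.80, adjusted p 0.0705). Dorsal over ventral striatum (-0.80, SE 0.39, adjusted p 0.0934) was called without dorsal striatum KO 7b (-1.62, adjusted p 0.00319), with the libraries high in cortical markers left out (-1.37, adjusted p 0.0306) and with library size alone (-0.95, adjusted p 0.0362). Dorsal striatum over hypothalamus (-0.42, adjusted p 0.347) was called without dorsal striatum KO 7b (-1.24, adjusted p 0.021). The 2 ventral comparisons, 0.38 over hypothalamus and -0.60 over motor cortex, were not called. With a block on the number in the library name, ventral striatum over motor cortex was called (-0.81, adjusted p 0.0295).

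Vip (ENSMUSG00000019772, chr10:5639218-5647617, plus strand) encodes vasoactive intestinal peptide. Its levels were 0, 0.272 and 1.84 CPM in dorsal striatum (lowest, median, highest, from 0 to 8 counts), 0.253, 0.764 and 1.67 CPM in ventral striatum, 0.37, 1.86 and 4.77 CPM in hypothalamus and 13.4, 13.9 and 19.4 CPM in motor cortex. Motor cortex was above every other library, and the other 3 regions overlapped. Dorsal striatum KO 7b, the highest dorsal library at 1.84 CPM, was also the highest there in cortical markers. Vip was lower than in motor cortex by a change of -4.99 in dorsal striatum (SE 0.54, adjusted p 4.86e-34) and -4.38 in ventral striatum (SE 0.42, adjusted p 4.34e-33), and motor cortex exceeded hypothalamus by 2.96 (SE 0.33, adjusted p 8.51e-21). Against hypothalamus it was lower in dorsal striatum (-2.03, SE 0.55, adjusted p 5.02e-05) and ventral striatum (-1.41, SE 0.44, adjusted p 0.00215). Without dorsal striatum WT 2b the dorsal change was -3.13 against hypothalamus and -6.10 against motor cortex. With hypothalamus WT 1f and 3f left out the changes against hypothalamus were -1.17 (adjusted p 0.06) and -0.55 (adjusted p 0.393). Dorsal over ventral striatum (-0.62, SE 0.61, adjusted p 0.452) was not called. At counts this low the fitted changes depend on the prior count.

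Genes of the caudal ganglionic eminence and of Htr3a cells (10 genes) summed to 167, 199 and 222 CPM in dorsal striatum, 221, 250 and 297 CPM in ventral striatum, 400, 426 and 496 CPM in hypothalamus and 448, 493 and 651 CPM in motor cortex. Lamp5 was the most abundant in dorsal striatum and in motor cortex (267 CPM there), and Calb2 (152 CPM) in hypothalamus. Dorsal striatum gave 2 higher and 7 lower than ventral striatum (list median -1.01, with Calb2 -3.98, Crh -3.63, Nr2f2 -1.24 and Adarb2 -1.12), 3 and 4 against motor cortex (Cck -4.52, Lamp5 -1.34) and 1 and 8 against hypothalamus. Ventral striatum gave 6 and 3 against motor cortex and 2 and 6 against hypothalamus, and motor cortex over hypothalamus 3 and 6. Between genotypes, Lamp5 was higher in KO than WT hypothalamus (1.28, adjusted p 0.00662) and in KO than heterozygous hypothalamus (1.45, adjusted p 0.000847), and Cck was higher in KO than heterozygous dorsal striatum (2.46, adjusted p 0.00458). Lamp5 in hypothalamus measured 16.1, 11.9 and 15.4 CPM in WT, 13.9, 14 and 10.7 CPM in heterozygous and 16.7 and 53.5 CPM in KO libraries, the last being KO 8f with its high cortical markers. Without KO 8f the changes were 0.21 against WT and 0.37 against heterozygous (adjusted p 1 each, with ranges over the alternatives from 8.92e-10 and from 1.81e-11 to 1). The KO over WT call was also lost without WT 1f (1.34, adjusted p 0.054) and without WT 2f (1.12, adjusted p 0.18). Cck in dorsal striatum was 28.1 CPM in KO 7b, the library highest there in cortical markers, and 2.1 CPM in KO 8b. Its change was -0.39 without KO 7b (adjusted p 0.953, from 4.91e-13 to 0.953 over the alternatives) and was not called without heterozygous 5b (2.39, adjusted p 0.079). The promoter window of Vip (chr10:5638968-5639267, plus strand) was this.
Vip: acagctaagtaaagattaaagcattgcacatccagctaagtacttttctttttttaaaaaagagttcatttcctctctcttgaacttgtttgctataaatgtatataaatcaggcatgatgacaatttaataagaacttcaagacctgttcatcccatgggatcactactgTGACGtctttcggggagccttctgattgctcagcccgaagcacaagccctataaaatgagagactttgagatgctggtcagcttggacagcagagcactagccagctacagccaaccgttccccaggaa

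Genes shared by GABA neurons of all kinds (8 genes) summed to 1391, 1493 and 1613 CPM in dorsal striatum, 1567, 2025 and 2219 CPM in ventral striatum, 1182, 1321 and 1348 CPM in hypothalamus and 912, 948 and 1003 CPM in motor cortex. Gad2 was the most abundant in dorsal (557 CPM) and ventral striatum (876 CPM). Between dorsal and ventral striatum, where the sums overlapped only through ventral WT 1a at 1567 CPM, 1 gene was higher (Dlx6 0.46) and 3 lower (among them Gad2 -0.72 and Dlx1 -0.83), with a list median of -0.37. Against motor cortex dorsal striatum had 5 higher and 2 lower (list median 1.28). No gene of the list was called between genotypes with edgeR's likelihood ratio test, with at most 1 of 8 at an unadjusted p under 0.05 in any comparison.

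Ratios within a library, on the per kb scale, do not depend on the scaling between libraries. Slc5a7 to Chat was 1.51, 1.65 and 2.16 in dorsal striatum (lowest, median, highest) and 1.54, 1.81 and 2.18 in ventral striatum, overlapping throughout. Nos1 to Sst was 0.214, 0.251 and 0.294 in dorsal and 0.103, 0.15 and 0.227 in ventral striatum, 0.286, 0.32 and 0.345 in hypothalamus and 0.0532, 0.0602 and 0.088 in motor cortex. Motor cortex was the lowest region without overlap. Pvalb to Sst was 0.126, 0.184 and 0.818 in dorsal and 0.074, 0.131 and 0.207 in ventral striatum, 0.364, 0.598 and 1.63 in hypothalamus and 0.819, 0.903 and 1.23 in motor cortex. Chat to Sst was 0.0533, 0.0738 and 0.0899 in dorsal and 0.0221, 0.0374 and 0.0537 in ventral striatum, so the regions overlapped only between 0.0533 and 0.0537. Lhx6 to Sst was 0.0451, 0.0697 and 0.0776 in dorsal and 0.0721, 0.0912 and 0.136 in ventral striatum, with a narrow overlap. Pvalb to Lhx6 was 1.78, 4.07 and 10.5 in dorsal and 0.954, 1.37 and 1.56 in ventral striatum, without overlap.

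**Figure D4:**
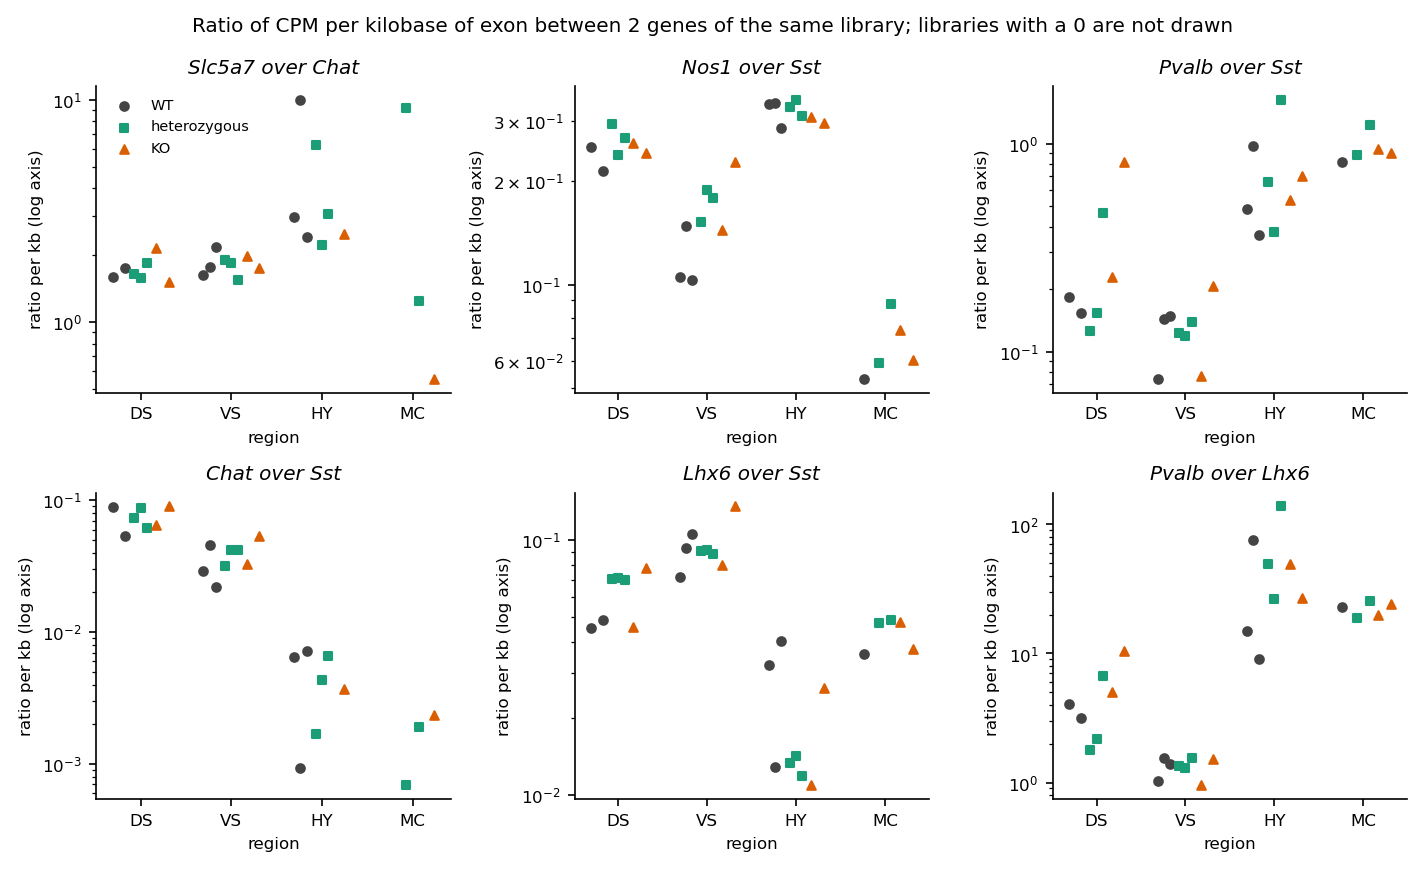
Ratios of pairs of members within each library on the per kb scale (vertical axis, logarithmic) by region, with WT as circles, heterozygous as squares and KO as triangles, and libraries with a 0 not drawn. Pvalb to Lhx6 separates dorsal (1.78 to 10.5) from ventral striatum (0.954 to 1.56).

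Pairs of members, within a class and between classes, were also compared over the libraries of 1 region, pooling genotypes, for 6 pairs in 3 regions (18 correlations of log2 CPM, 2-sided exact permutation p, r and rho each adjusted over the 18). Each r was also computed without the 2 libraries farthest from the median of the first gene of the pair. Leaving these out narrows the spread of that gene, so a lower r does not show what a correlation rests on. In ventral striatum (n = 8) Chat and Slc5a7 had r 0.87 (exact p 0.0057, adjusted 0.0342), rho 0.93 (exact p 0.00223, adjusted 0.0201) and r 0.85 without WT 3a and WT 2a. In ventral striatum Lhx6 and Pvalb had r 0.93 (exact p 0.00325, adjusted 0.0292), rho 0.88 (exact p 0.00724, adjusted 0.0326) and r 0.96 without WT 3a and KO 8a. Sst and Nos1 in hypothalamus (n = 8) had r 0.88 (exact p 0.00283, adjusted 0.0292), rho 0.88 (exact p 0.00724, adjusted 0.0326) and r 0.73 without heterozygous 6f and 5f. Chat and Slc5a7 in hypothalamus had r 0.84 (exact p 0.0143, adjusted 0.0642), rho 0.95 (exact p 0.00114, adjusted 0.0201) and r 0.78 without KO 8f and WT 2f. For dorsal striatum (n = 7) Chat and Slc5a7 had rho 0.50 (exact p 0.267, adjusted 0.436) and r 0.54 (exact p 0.215, adjusted 0.43), which became -0.17 without heterozygous 5b and 6b. Sst and Nos1 in dorsal striatum had r 0.73 (exact p 0.0679, adjusted 0.174), rho 0.57 (exact p 0.2, adjusted 0.36) and r 0.63 without KO 8b and WT 2b. Their r in ventral striatum was -0.70 (exact p 0.0504, adjusted 0.151), with rho -0.62 (exact p 0.115, adjusted 0.296) and r -0.35 without WT 3a and KO 8a. Lhx6 and Pvalb in hypothalamus had r -0.71 (exact p 0.0426, adjusted 0.151), rho -0.79 (exact p 0.0279, adjusted 0.101) and r -0.52 without WT 3f and WT 1f. The other 10 correlations had r from -0.45 to 0.49, with exact p of 0.212 or more for r and 0.11 or more for rho (dorsal Chat with Pvalb, rho -0.68). Without WT 3a and WT 2a, ventral Chat with Lhx6 went from 0.13 to 0.80 and ventral Chat with Pvalb from 0.38 to 0.85. The sign of r thus differed between regions for Sst with Nos1, Lhx6 with Pvalb and Chat with Pvalb. It was positive in all 3 regions for Chat with Slc5a7, Lhx6 with Sst and Chat with Lhx6. No negative r had an adjusted p under 0.05, and the differences between regions were not tested.

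Over all 28 libraries, the genes whose log2 CPM followed Chat most closely were Ano2 (r 0.98), Penk and Slc5a7 (0.97 each), Spata13 and Gpr6 (0.96 each), and over deviations from the region mean they were Rwdd1 (0.70), Surf2 (0.66), and Hk2, Rnpep and Clu (0.64 each). For Pvalb they included Scn1a (0.93), Panx2 and Glrb (0.91 each) and Mfsd4a (0.90), and for deviations Vamp1 and Esrrg (0.90 each) and Kcnab3, Cerk and Nrip3 (0.85 each). For Sst the first was Gda (0.94), followed by Dscaml1, Ppp1r12b, Tsc22d1 and Cers6, the last at 0.84, and for deviations Usp34 (0.76), Tmem9b (0.74), Gfra4 (0.72), Ahi1 (0.70) and Zfp68 (0.69). The whole-set values carry the region differences, and the deviations do not. Neither was tested.

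Between genotypes, 2 of 96 member tests were called with edgeR's likelihood ratio test, both of Vip in hypothalamus, and 10 were under an unadjusted p of 0.05. The quasi-likelihood test and DESeq2 each called 0. For KO over WT, 0 members were called in dorsal striatum, ventral striatum, hypothalamus and motor cortex, with 2, 1, 0 and 0 at an unadjusted p under 0.05. Of all 14979 genes, 0.387%, 0.0801%, 0.167% and 0.0334% were called in these regions. For heterozygous over WT, 0, 0, 1 and 0 members were called, with 1, 1, 2 and 0 at an unadjusted p under 0.05, against 0.0868%, 0.0534%, 0.0935% and 0.0134% of all genes. For KO over heterozygous, 0, 0, 1 and 0 members were called, with 1, 0, 2 and 0 at an unadjusted p under 0.05, against 0.454%, 0.0467%, 0.234% and 0.00668% of all genes. Groups this small can separate without overlap by chance, and the share of all genes that do so was not counted. Separations below are described for some members only. Slc5a7, for example, was also lower in both KO than in every heterozygous hypothalamus library.

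**Figure D5:**
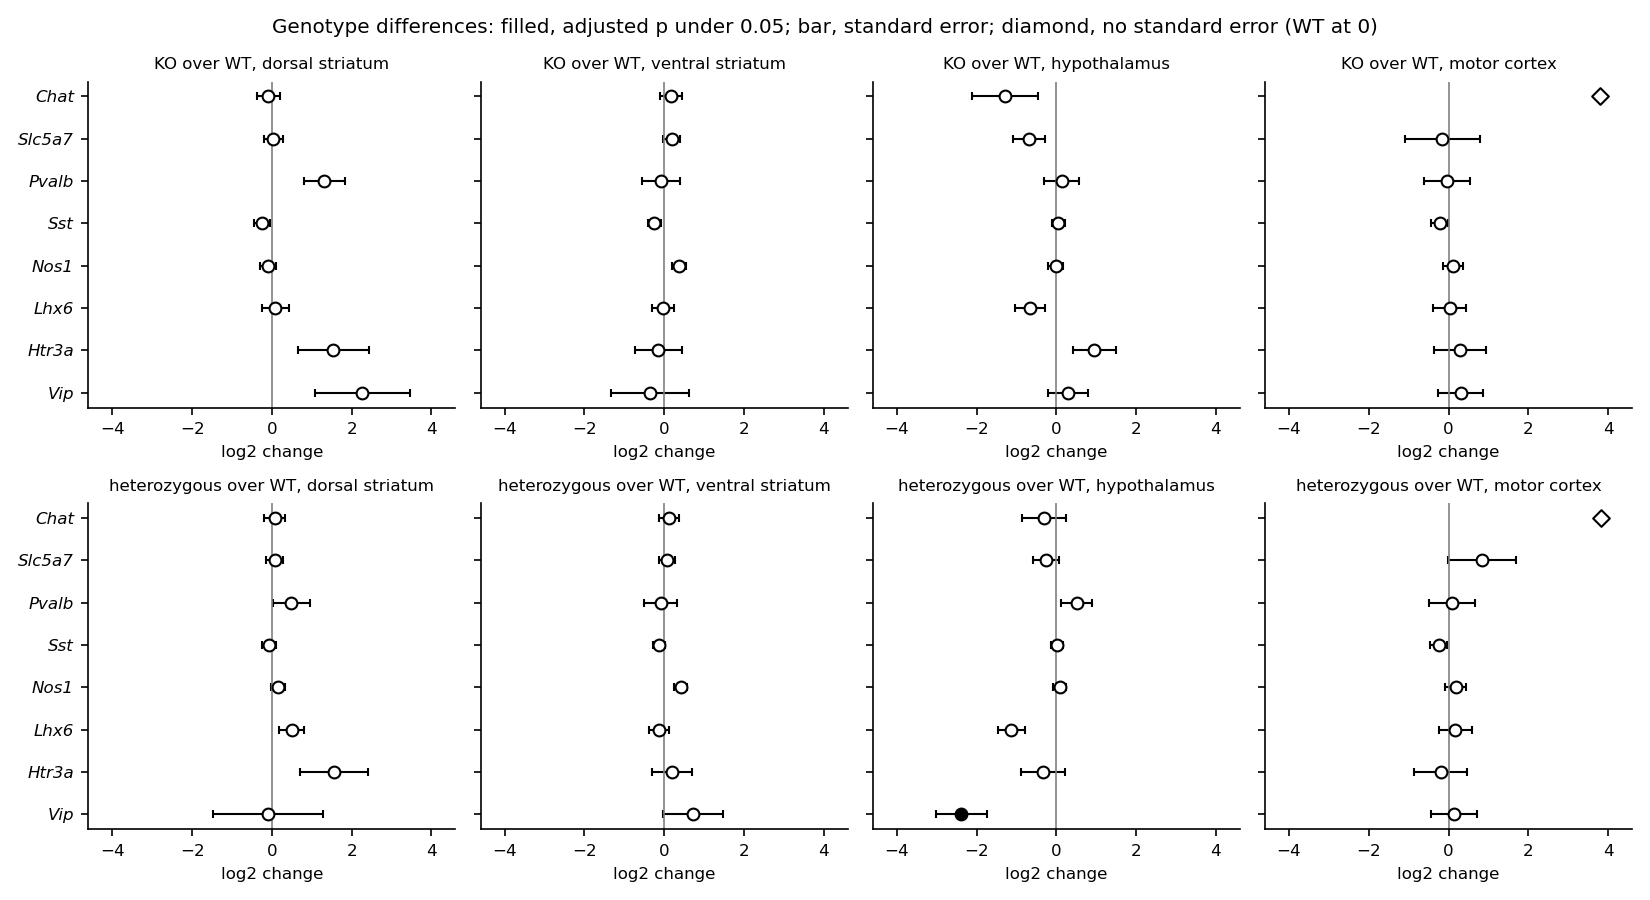
Log2 change of each member for KO over WT and heterozygous over WT in the 4 regions, with standard errors, filled where the adjusted p was under 0.05 and diamonds where a group at 0 gave no standard error. Only Vip in hypothalamus is filled, at -2.38 for heterozygous over WT.

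The cholinergic members did not separate by genotype in striatum. In dorsal striatum the KO to WT fold of Chat was 0.937 (95% interval 0.634 to 1.39) and that of Slc5a7 1.02 (0.737 to 1.41). In ventral striatum the folds were 1.13 (0.769 to 1.65) for Chat and 1.14 (0.846 to 1.54) for Slc5a7. In hypothalamus, with few counts, the KO to WT fold was 0.411 (0.133 to 1.27) for Chat and 0.623 (0.362 to 1.07) for Slc5a7. The KO and WT libraries of both genes overlapped. WT 1f and 3f, the libraries high in Lhx8, were the highest of the region for both genes. They measured 1.35 and 1.79 CPM for Chat and 4.84 and 5.19 CPM for Slc5a7, while WT 2f was at 0.172 and 2.06 CPM.

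Pvalb was higher in both KO than in both WT dorsal libraries, but heterozygous 6b at 25.6 CPM lay between the KO libraries. The KO to WT fold was 2.47 (1.24 to 4.96; 1.31 log2 units, SE 0.51, edgeR adjusted p 0.39). It rested on KO 8b, the library with the choroid plexus and high oligodendrocyte markers, since the change was 0.35 (adjusted p 1) without it and 1.88 (adjusted p 0.0506) without KO 7b. Over 13 alternatives the change ran from 0.35 to 2.00 and the adjusted p from 0.0497 to 1, the lowest with library size alone (1.59). In ventral striatum the Pvalb fold was 0.946 (0.5 to 1.79).

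Sst in ventral striatum fell in order of genotype, with both KO libraries below every heterozygous library and those below every WT library. The KO to WT fold was 0.84 (0.677 to 1.05, -0.25 log2 units, SE 0.16, edgeR adjusted p 0.942), so the order was not matched by a called difference. The share of all genes with such an order was not counted. In dorsal striatum the KO to WT fold of Sst was 0.839 (0.65 to 1.09), with the KO libraries below the heterozygous ones and overlapping WT. Nos1 in ventral striatum was higher in heterozygous than WT by a fold of 1.34 (1.08 to 1.66; edgeR adjusted p 0.994, from 0.461 to 1 over 15 alternatives) and in KO than WT by 1.3 (1.02 to 1.66; edgeR adjusted p 0.878, from 0.0946 to 1 over 14 alternatives), with overlapping KO and WT libraries. The KO over WT change in Nos1 of 0.38 was 0.08 without KO 8a, 0.64 without KO 7a and 0.03 with KO 8a and WT 3a left out, so it rested on KO 8a. In dorsal striatum the Nos1 KO to WT fold was 0.926 (0.706 to 1.22). Lhx6 gave 1.06 (0.666 to 1.68) in dorsal and 0.984 (0.674 to 1.44) in ventral striatum, and its 3 heterozygous dorsal libraries were above both WT and both KO libraries (heterozygous over WT 0.50, edgeR adjusted p 0.727).

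Vip in hypothalamus measured 4.45, 0.516 and 4.3 CPM in WT, 0.37, 0.93 and 0.389 CPM in heterozygous and 4.77 and 2.79 CPM in KO libraries. The KO libraries were above the heterozygous ones without overlap, and WT spanned both. Vip was lower in heterozygous than WT (fold 0.192, -2.38 log2 units, SE 0.63, edgeR adjusted p 0.033) and higher in KO than heterozygous (fold 6.41, 2.68 log2 units, SE 0.66, edgeR adjusted p 0.00887), while KO over WT was 0.30 (adjusted p 0.999). The 2 high WT libraries are the same 1f and 3f that were high in Lhx8. With both left out the heterozygous over WT change was 0.13 (adjusted p 1). Leaving out single libraries gave adjusted p-values of 0.348 (without 4f), 0.057 (5f), 0.308 (6f), 0.586 (1f), 3.95e-06 (2f) and 0.511 (3f), with changes from -2.92 to -2.03, and over all 15 alternatives the adjusted p ran from 3.95e-06 to 1. For KO over heterozygous the change stayed between 2.21 and 3.22, with adjusted p-values of 0.0817 (4f), 0.0159 (5f), 0.127 (6f), 0.255 (7f) and 0.0996 (8f), and of 0.164 by the quasi-likelihood test, 0.123 by DESeq2 and 0.0623 without KO 8f and the dorsal libraries high in cortical markers, from 0.00169 to 0.533 over 14 alternatives. Lhx6 in hypothalamus, at 6.97, 2.41 and 10.2 CPM in WT and 2.96, 3.72 and 2.14 CPM in heterozygous libraries, was also highest in WT 1f and 3f. Its heterozygous over WT change of -1.13 (SE 0.34, edgeR adjusted p 0.349) was -1.54 (adjusted p 0.00188) without WT 2f and 0.30 (adjusted p 1) with WT 1f and 3f left out, from 0.00188 to 1 over 15 alternatives.

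Htr3a and Vip had few counts elsewhere. In hypothalamus both KO libraries of Htr3a, at 2.82 and 2.15 CPM, were above every WT and heterozygous library (KO over heterozygous 1.28, SE 0.56, edgeR adjusted p 0.778). In dorsal striatum Htr3a was higher in heterozygous than WT libraries (1.55, SE 0.85, edgeR adjusted p 0.602), and Vip was higher in KO than in WT (2.27, SE 1.19, edgeR adjusted p 0.507) and heterozygous libraries (2.36, SE 1.02, edgeR adjusted p 0.38). None of these was called. Htr3a for heterozygous over WT was 0.79 without WT 2b and 2.66 without WT 1b. For Vip, KO over WT was 1.52 without KO 7b, about as low without WT 1b, and 5.59 without WT 2b, and KO over heterozygous was 1.62 without KO 7b. KO 7b and WT 2b were the dorsal libraries high in cortical markers. Over the alternatives the adjusted p ran from 0.252 to 1 for this Htr3a change, and for Vip from 0.124 to 1 (KO over WT) and from 0.266 to 0.991 (KO over heterozygous).

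Whether the KO over WT effect differed between regions was tested for each pair of regions, and 0 of 48 member tests were called with edgeR's likelihood ratio test, with 3 at an unadjusted p under 0.05 and 0 by the quasi-likelihood test and DESeq2. Over all genes 0.00668% were called for dorsal against ventral striatum, 0.127% for dorsal striatum against motor cortex, 0.154% for dorsal striatum against hypothalamus, 0% for ventral striatum against motor cortex, 0.1% for ventral striatum against hypothalamus and 0.0134% for motor cortex against hypothalamus. The 3 were Pvalb for dorsal against ventral striatum (1.39, SE 0.69), Slc5a7 for ventral striatum against hypothalamus (0.88, SE 0.46) and Chat for motor cortex against hypothalamus (5.08, set against a WT library at 0), each with an adjusted p of 1. Hdc was called for each other region against hypothalamus (4.79 for dorsal striatum, 4.62 for ventral striatum and 8.72 for motor cortex). The motor cortex value is also set against a WT library at 0 and depends on the prior count.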

How the data were processed

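RNA was measured by RNA-seq in 28 libraries of 4 brain regions and 3 Hdc genotypes. The authors made libraries with the Ovation RNA-Seq System V2, trimmed reads with Trimmomatic 0.32, dropping reads under 20 bases, removed ribosomal reads with Bowtie2 2.2.3, aligned the rest to GRCm38 with STAR 2.3.1z8, and counted them on exons with HTSeq 0.6.1p1 in union mode (SAMtools 0.1.19). The deposited values are raw counts per gene and library, not normalised or filtered. Between 44.78% and 54.22% of the reads listed in a table were on genes, and 6 entries that name no gene were left out. The tables list Ensembl identifiers, and GENCODE M21 on the same build named 28758 of 29878.

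Everything else was computed from the deposited counts. CPM are scaled by TMM, log2 CPM use a prior count of 2, and values per kb divide by exon length. Genes above 1 CPM in at least 2 libraries (14979) went into glmFit and glmLRT of edgeR 4.0.16 (R 4.3.3), the functions named in the study's methods, with 12 group means. Region comparisons average the 3 genotypes with equal weight. Calls are those with a p under 0.05 after Benjamini-Hochberg adjustment over all genes tested, and every adjusted p without another tool's name is from this test. Replicate pairs (21) differed by more than counting error, with chi-square per degree of freedom from 1.86 to 14.6. Intervals of fitted folds are normal 95% intervals from the standard error. Intervals of summed count ratios are exact (Clopper-Pearson) and cover counting error only. A lone library is assumed to vary like the other groups.

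Alternatives were edgeR's quasi-likelihood test, DESeq2 1.42.0, library size alone, RLE size factors, other filters, only the libraries compared, WT libraries alone, a block on the number in the library name (with limma 3.58.1 for genotype comparisons), each library left out, and 3 sets of libraries left out that were chosen after seeing the data. Python 3.11.15 with numpy 2.4.6, scipy 1.17.1, pandas 2.3.3 and matplotlib 3.10.9 made summaries, exact permutation tests and figures. The code was tested on simulated data. The members and the 11 marker lists were chosen with earlier results of these data known. The text names the members, up to 4 called genes per list and comparison by smallest p, the most abundant gene of a list, the 5 genes most like Chat, Pvalb and Sst, and Hdc, apart from a few genes that are not reported here. Genes of other lists at 0 in single libraries and those of libraries that stood apart were named after their values were seen.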

Additional observations from a re-analysis of the deposited data

Results flagged for a closer look

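In 4 of 32 tests, a library lay farther from its region's other libraries than Dixon's 95% critical value allows. That value is meant for normally distributed values, while the CPM tested were unlogged and pooled over genotypes. The number of tests that passed it therefore cannot be set against a chance rate. Pvalb in hypothalamus heterozygous 6f was 64.1 CPM, with the nearest library at 39.7. Lhx6 in motor cortex heterozygous 5d was 16.9 CPM, with the nearest at 13.9. Vip was 1.84 CPM in dorsal striatum KO 7b and 1.67 CPM in ventral striatum heterozygous 6a, both from few counts. The hypothalamus library was also the highest of its region in oligodendrocyte markers (5402 CPM) and the second highest in cortical excitatory markers (334 CPM), and was the highest heterozygous library in Pvalb, as number 6 was in all 4 regions. Dorsal striatum KO 7b was the highest of its region in cortical excitatory markers (442 CPM). Ventral striatum heterozygous 6a was the highest of its region in choroid plexus markers (94.3 CPM, of which Ttr made 61.7, against a median of 28.8). Whether these share a cause was not tested.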

How the results depend on the processing

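Of 870 alternative values of called members, 835 kept their direction and their side of the threshold, 34 kept the direction but were no longer called, and 1 reversed. The reversal was Vip for heterozygous over WT in hypothalamus, 0.13 with WT 1f and 3f left out. Of 413 counts of members called, 24 moved by more than 1.5 times or went to or from 0.

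For dorsal over ventral striatum the count was 2, and 4 with ventral KO 8a and WT 3a left out and 2 to 5 with single libraries left out. For KO over WT in dorsal striatum it was 0, and 1 (Pvalb) with library size alone. For heterozygous over WT in hypothalamus it was 1, and 0 by the quasi-likelihood test, by DESeq2, with only the libraries compared, with the block and with WT 1f and 3f left out, and 0 to 2 with single libraries left out. For KO over heterozygous in hypothalamus it was 1, and 0 by the quasi-likelihood test, by DESeq2, with the block and with the libraries high in cortical markers left out, and 0 to 1 with single libraries left out. The causes were not tested.

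Of 54 correlations under alternatives, 52 were unchanged and 2 passed the threshold, Chat with Slc5a7 in hypothalamus at r 0.86 (prior count 5) and 0.87 (library size alone).

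Library size alone moved the median of all genes to -0.165 for dorsal over ventral striatum, -0.406 for dorsal striatum and -0.243 for ventral striatum over hypothalamus, -0.280 for motor cortex over hypothalamus, and 0.276 and 0.197 for KO and heterozygous over WT in dorsal striatum. It moved KO over heterozygous in motor cortex to 0.132 and the region differences of the KO effect to 0.118 to 0.353. Genes called higher for dorsal over ventral striatum went from 2187 of 4345 to 1269 of 5063, for dorsal striatum over motor cortex from 3209 of 6498 to 2215 of 6358, for dorsal striatum over hypothalamus from 3816 of 8408 to 1939 of 10066, for ventral striatum over hypothalamus from 2950 of 6533 to 1610 of 7825, for motor cortex over hypothalamus from 3427 of 7225 to 2100 of 8216, for heterozygous over WT in dorsal striatum from 8 of 13 to 51 of 56, for the same in ventral striatum from 6 of 8 to 6 of 6, and for KO over heterozygous in dorsal striatum from 50 of 68 to 73 of 82. For KO over WT in dorsal striatum they went from 53 of 58 to 496 of 496. For the KO effect in dorsal against ventral striatum they went from 0 of 1 to 4 of 5, in dorsal striatum against hypothalamus from 14 of 23 to 133 of 139, and in ventral striatum against hypothalamus from 3 of 15 to 3 of 9. Of 413 counts of genes called, 161 moved by more than 1.5 times or went to or from 0. KO over WT ran from 5 to 496 in dorsal striatum.

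Over all genes, deviations of libraries sharing a number had a mean r of 0.00697 (34 pairs, from -0.0798 to 0.0856), which does not speak for single genes such as Pvalb, where number 8 exceeded 7 and number 6 the other heterozygous libraries in all 4 regions. With the block, Htr3a was also called for ventral striatum over motor cortex (-0.81, adjusted p 0.0295). Without the 1 WT motor cortex library, comparisons that need it have no value. Depth limits Htr3a, Vip in striatum, and Chat in motor cortex and hypothalamus, where a few counts decide the values.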
